A study of Homo sapiens with 12 samples.

Results

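The comparison described is between BT474 cells labelled as carrying a knockout (KO) of BRD8 and parental BT474 cells, both treated with neratinib. BT474 is an established human breast cancer line with amplified HER2 (the gene ERBB2) and hormone receptors. Members were chosen by their labels alone, genotype and treatment, and numbered 6 of the 12 RNA-seq libraries of the series: 3 parental and 3 KO-labelled, each after 200 nM neratinib for 4 h. The other 6 libraries, 3 of each genotype in DMSO, the solvent, were used to see whether a genotype difference depended on the drug. All cells were grown in serum-supplemented medium and carried no other alteration named in the labels. The edit site, the clonal or pooled origin of the KO line and the origin of the replicates are not stated in the labels. Each p-value therefore covers the spread among these libraries alone, which may be technical. A genotype difference cannot be told apart from a difference between derived and parental cells that BRD8 does not cause.

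As background, neratinib binds covalently to the kinase domains of EGFR, HER2 and HER4. In HER2-amplified cells these receptors, often paired with the kinase-impaired ERBB3, drive the RAS-ERK and PI3K-AKT pathways. ERK activity induces its own inhibitors, the DUSP phosphatases and Sprouty proteins, whose mRNAs are commonly read as ERK output, while loss of AKT activity lets FOXO transcription factors enter the nucleus and activate their targets. BRD8 is a bromodomain protein of the EP400-TIP60 complex, which acetylates histones and exchanges histone variants at promoters.

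BRD8 mRNA (chromosome 5, 138139770 to 138178630, GRCh38.p14) stood at 232, 242 and 233 CPM (counts adjusted for the depth of each library) in the 3 parental libraries and 153, 158 and 157 CPM in the 3 KO-labelled libraries in neratinib. The groups did not overlap, and the log2 fold change, KO-labelled over parental, was -0.59, SE 0.021 (adjusted p = 3.16e-27 over all genes after Benjamini and Hochberg, from the quasi-likelihood fit of edgeR). In DMSO the means lay close, at 64.1 and 67.4 CPM, so a difference like that in neratinib was not seen there. The genotype effects in neratinib and DMSO did not pass a test for differing by more than 1.5-fold (adjusted p = 0.118, edgeR glmTreat). That test sets a threshold and does not show the effects to be equal. Editing need not remove the mRNA, and these levels do not settle the genotype.

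Library totals in neratinib were 32471198 to 44462918 counts in parental and 33272182 to 41431203 in KO-labelled libraries. Summed luminal markers, ESR1, GATA3, FOXA1, SPDEF, KRT8, KRT18, KRT19, EPCAM and CDH1, lay at 5437 to 5504 CPM over the 6 libraries (these sums relate counts to the plain library total, without TMM scaling), and the 5 HER2 amplicon genes at 13690 to 14220 CPM, so both genotypes carried the defining mRNAs of the line. Members of the luminal sum differed in opposite directions. In KO-labelled libraries ESR1, GATA3, FOXA1, SPDEF and EPCAM were lower and KRT8, KRT18 and CDH1 higher. Basal markers, mostly TP63, summed to 5.13 to 5.44 CPM in parental and 11 to 12.2 CPM in KO-labelled libraries. Mesenchymal markers summed to 138 to 142 and 188 to 192 CPM. The 10 immune, blood and endothelial markers summed to 21.4 to 23.5 CPM and 44.4 to 49 CPM, mostly VWF and CD68, with the defining lymphocyte and monocyte genes PTPRC, CD3E and CD14 at or near 0. Mitochondrially encoded transcripts, rRNA and tRNA included, took 4.28% to 4.94% of counts in parental and 5.16% to 5.3% in KO-labelled libraries. The part of these differences in the results was not tested.

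Gene expression differed widely between the genotypes in neratinib. Of 16208 genes tested, 1810 (11.2%) were called with at least a 2-fold difference, 1284 higher (7.92%) and 526 lower (3.25%) in KO-labelled cells. At any size 11605 genes (71.6%) passed the test, 5622 higher (34.7%) and 5983 lower (36.9%). The shares of list members given below are to be read beside 34.7% and 36.9%. For 11769 genes (72.6%) the 3 libraries of one genotype did not overlap those of the other. Replicates were close, with a common biological coefficient of variation of 1.86%, so 4075 of the called differences were under 1.2-fold. The median log2 fold change over all genes was -0.02. At least 4-fold differences were called for 357 genes that were higher and 84 that were lower, and at least 16-fold for 28 and 19. Large changes were mostly in mRNAs of modest level: of 2305 genes at 100 CPM or more in either genotype, 43 were at least 2-fold higher and 21 at least 2-fold lower. With a mean of at least 5 CPM required, the 2-fold count was 514 (371 higher, 143 lower). In bulk RNA, fewer cells making an mRNA and less of it per cell cannot be told apart.

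**Figure D1:**
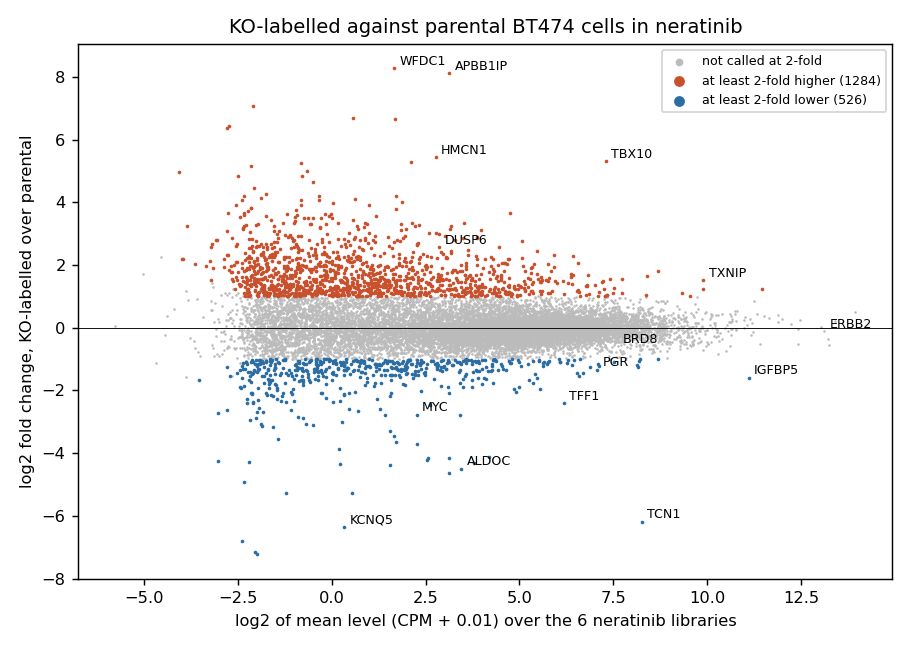
Each point is 1 of the 16208 genes tested: the x axis is the log2 of its mean level over the 6 neratinib libraries (CPM + 0.01), the y axis its log2 fold change, KO-labelled over parental. The 1284 coloured points above and 526 below are genes called at least 2-fold different; TCN1 stands apart at high level with a fold change of -6.19, while ERBB2, the most abundant gene labelled, lies at -0.12.

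The mRNAs of HER2 and its partner differed little between the genotypes. ERBB2 stood at 9172, 9172 and 9062 CPM in parental and 8508, 8392 and 8392 CPM in KO-labelled libraries, a log2 fold change of -0.12, and its partner ERBB3 at 1021, 1008 and 1024 against 946, 944 and 964 CPM (-0.1). Neither pair of groups overlapped, but both calls were lost when every gene was given a coefficient of variation of 0.1 (adjusted p = 0.453 and 0.537, edgeR). EGFR was higher, at 46.4, 49.1 and 51.5 against 33.6, 32.9 and 33.7 CPM (log2 fold change 0.55, SE 0.037). Among the ligands, AREG, which encodes the EGFR ligand amphiregulin, rose from 3.27, 3.38 and 3.3 to 7.45, 6.4 and 6.56 CPM (1.03, SE 0.098, adjusted p = 1.04e-12, edgeR). The ligand genes HBEGF and EREG rose by 1.24 and 1.38 on the log2 scale, both from under 1 CPM. ERRFI1, whose product MIG6 binds and inhibits ErbB kinases, rose from 15, 17.3 and 15.8 to 33, 33.1 and 34.4 CPM (1.07, SE 0.045). Of 23 genes listed as ErbB receptors, ligands and feedback regulators, 13 rose and 7 fell (56.5% and 30.4%, against 34.7% and 36.9% of all genes), with a median of 0.29, which was -0.03 for the members with a mean of at least 5 CPM.

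ERK output genes stood higher in KO-labelled cells under the drug. DUSP6, the cytoplasmic ERK phosphatase (chromosome 12, 89347235 to 89352501), was at 2.22, 2.11 and 1.95 CPM in the parental and 12.9, 12.8 and 11.8 CPM in the KO-labelled libraries. The groups were far apart, with a log2 fold change of 2.57, SE 0.088 (adjusted p = 6.44e-28, edgeR quasi-likelihood). In DMSO its means were 36.5 and 28.1 CPM, so that 5.73% of the DMSO level remained in neratinib in parental cells and 44.4% in KO-labelled cells. The difference between the genotype effects in neratinib and in DMSO, called the interaction here, was 2.95, SE 0.098, on the log2 scale (adjusted p = 1.42e-23, glmTreat for more than 1.5-fold).

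The nuclear phosphatase gene DUSP4 showed the same order at a higher level, 57.6, 54.8 and 57.4 CPM in parental and 126, 127 and 129 CPM in KO-labelled libraries (1.17, SE 0.024). The ETS factor genes ETV4 and ETV5, transcribed downstream of ERK, went from 3.25, 3.29 and 3.19 to 5.29, 5.25 and 6.03 CPM and from 0.589, 0.513 and 0.857 to 1.92, 1.89 and 1.62 CPM. The receptor gene EPHA2 stood at 0.829, 1.21 and 1.27 against 3.55, 2.76 and 3.41 CPM (1.57, SE 0.15). None of these groups overlapped. The Sprouty genes were low: SPRY2 went from 1.29, 1.18 and 1.19 to 2.46, 2.36 and 2.43 CPM and SPRY4 from 0.458, 0.332 and 0.467 to 0.858, 0.992 and 0.894 CPM. VGF, a secreted neuropeptide precursor induced by growth factors, rose by 1.9 but also by 1.5 in DMSO.

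Not every output gene followed. CCND1, which encodes cyclin D1, was lower in KO-labelled cells, at 24.7, 25.8 and 25.4 against 29.5, 30.6 and 28.4 CPM (log2 fold change -0.22), a call that was lost with a coefficient of variation of 0.1 (adjusted p = 0.142, edgeR). EGR1, an immediate transcriptional target of ERK, fell from 9.49, 12 and 10.2 to 6.27, 6.83 and 6.17 CPM. Of the 20 output genes tested, of 23 in the table, 12 rose and 5 fell in neratinib (60% and 25%), with a median of 0.39. In DMSO 5 rose and 11 fell (against 36% and 35.6% of all genes), with a median of -0.21. The interaction passed 1.5-fold for 8 of the 20, all towards KO-labelled cells, against 2.17% of all genes: DUSP6, SPRY4, EPHA2, ETV5, ETV4, SPRY2, DUSP4 and EGR1. For EGR1 the interaction passed narrowly (adjusted p = 0.0471, glmTreat) and arose from a deeper deficit in DMSO (-1.65) than in neratinib (-0.7). The level in neratinib as a share of that in DMSO had a median of 23% for parental and 41.9% for KO-labelled cells. It was higher in KO-labelled cells for 16 of the 20, which restates the sign of their interaction estimates. The median interaction was 0.68 for these genes and -0.02 for all genes. The drug did not lower every one: in parental cells the share was 102.5% for EGR1, 137.3% for SPRED3 and 270.6% for MAFF.

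**Figure D2:**
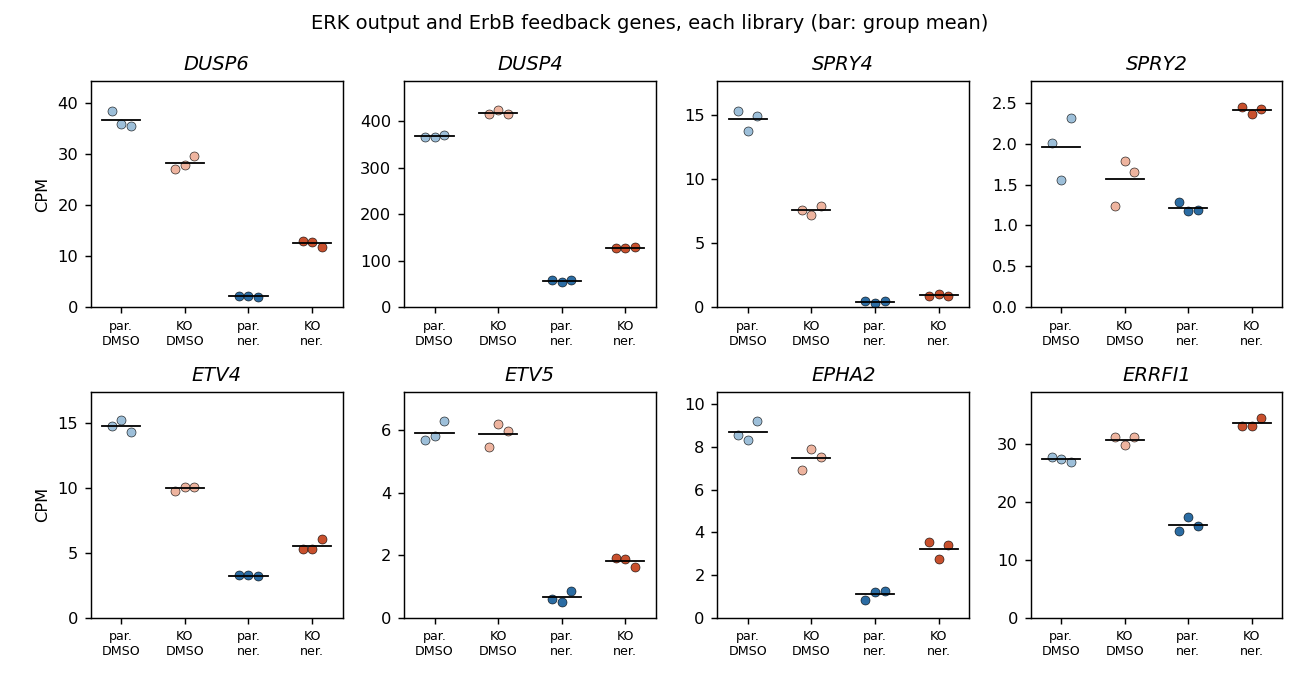
Levels of 8 ERK output and ErbB feedback genes in CPM (linear axes from 0), with each of the 12 libraries as a point and the group mean as a bar. In neratinib all 3 KO-labelled libraries lie above all 3 parental ones in each of the 8 panels; in DMSO all 3 parental libraries are the higher ones for DUSP6, SPRY4, ETV4 and EPHA2.

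Immediate-early genes, which encode transcription factors induced within minutes of a stimulus, were mostly higher. Of 24 tested, 20 rose and 1, EGR1, fell (83.3% and 4.17%, against 34.7% and 36.9% of all genes). The median log2 fold change was 0.5 in neratinib and 0.44 in DMSO. KLF2 stood at 7.39, 7.85 and 7.95 CPM in parental and 29, 31 and 30.3 CPM in KO-labelled libraries (1.97, SE 0.053). ATF3, a stress-induced factor, rose by 1.32 and JUNB by 1.05. JUN rose less in neratinib than in DMSO, by 0.59 and 1.34, an interaction of -0.75 (adjusted p = 2.46e-05, glmTreat).

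Of 29 FOXO target genes, 16 were higher and 12 lower (55.2% and 41.4%, against 34.7% and 36.9% of all genes). Their median was 0.13, and the share that was lower lay near that of all genes. FOXO3 itself was at 605, 622 and 612 against 755, 784 and 773 CPM and FOXO4, a related factor, at 35.9, 35.9 and 36.4 against 14.1, 14.7 and 13.9 CPM, so one rose by 0.33 and the other fell by 1.34 on the log2 scale. The insulin receptor substrate gene IRS2 was slightly lower in KO-labelled cells (-0.3).

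The arrestin-domain genes TXNIP and ARRDC4, whose proteins restrain glucose uptake, were higher in KO-labelled cells in neratinib and differed little in DMSO. TXNIP (chromosome 1, 145992435 to 145996579) stood at 499, 480.1 and 489 CPM in parental and 1406, 1402 and 1398 CPM in KO-labelled libraries, a log2 fold change of 1.52, SE 0.019, against 0.16 in DMSO. ARRDC4 (chromosome 15, 97960703 to 97973833) stood at 22, 23.5 and 23 against 65.8, 70.6 and 64.1 CPM, a log2 fold change of 1.56, SE 0.039, against -0.23 in DMSO. The groups did not overlap for either gene. The interactions were 1.36 and 1.79 (adjusted p = 2.7e-26 and 3.33e-22, glmTreat).

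The largest rises were of mRNAs that parental cells barely held. The secreted WAP-domain gene WFDC1 had 702 counts over the 3 KO-labelled libraries against 2 over the 3 parental ones, a depth-scaled ratio of 365.3 (95% interval 101 to 3022, counting error only) and of 223 without parental neratinib replicate 1. APBB1IP, which encodes the integrin-activating adaptor RIAM, had 1953 against 7 counts (ratio 290.4, 141 to 723), and 728 without parental neratinib replicate 2, which held 5 of the 7. The caveolae gene CAVIN2 had 334 against 3 (ratio 116, 39.3 to 565), with ratios of 70.8 and 249 without parental neratinib replicate 1 and 2. In all, 13 genes were at 1 CPM or more in KO-labelled cells and under 0.1 CPM in parental cells, and 2 the reverse.

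Others among the 12 largest rises were of the nucleoside transporter gene SLC28A3 (123 counts against 3, ratio 42.7, 14.3 to 210), EBLN1 (134 against 4, ratio 34.9, 13.3 to 130) and CLEC3A (120 against 4, ratio 31.2, 11.9 to 116). The same group held EPB41L3 (152 against 6, ratio 26.4, 11.8 to 73), BCAN (118 against 7, ratio 17.5, 8.25 to 44.6), the leukotriene receptor gene CYSLTR1 (166 against 10, ratio 17.3, 9.16 to 36.7) and APOL4. The ratio of SLC28A3 was 26.1 and 86.2 without parental neratinib replicate 1 and 3, that of EBLN1 was 21.3 without replicate 1, and that of BCAN was 27.6 without replicate 3. HMCN1, a large matrix protein gene, rose from 0.196, 0.272 and 0.467 to 12.6, 13.8 and 13.6 CPM. Only TBX10, a T-box transcription factor gene, was abundant among these 12, at 7.5, 8.31 and 7.58 CPM in parental and 313, 305 and 305 CPM in KO-labelled libraries (5.31, SE 0.033, adjusted p = 2.67e-56, edgeR).

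Of the falls, that of TCN1, which encodes the cobalamin-binding protein haptocorrin, was the largest in CPM among the 12. TCN1 (chromosome 11, 59852808 to 59866487) stood at 601, 592 and 608 CPM in parental and 8.58, 8.29 and 7.77 CPM in KO-labelled libraries, a log2 fold change of -6.19, SE 0.030 (adjusted p = 1.84e-60, edgeR). The aldolase gene ALDOC fell from 20.5, 21.3 and 21.2 to 0.769, 1.04 and 0.950 CPM, the sushi-domain gene SUSD3 from 26.6, 26.6 and 25.2 to 0.887, 1.56 and 1.42 CPM, and FGD3, a CDC42 exchange factor gene, from 34.8, 33 and 35 to 1.86, 1.94 and 2.15 CPM. SPAG4, the bombesin receptor gene GRPR, NUCB1 and the drug-metabolising CYP2B6 fell by 4.2, 4.15, 4.33 and 3.88 on the log2 scale. For the potassium channel gene KCNQ5, 291 counts in parental libraries stood against 3 (ratio 93.2, 31.6 to 455), with ratios of 58.0 and 190.3 without KO-labelled neratinib replicate 2 and 3.

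**Figure D3:**
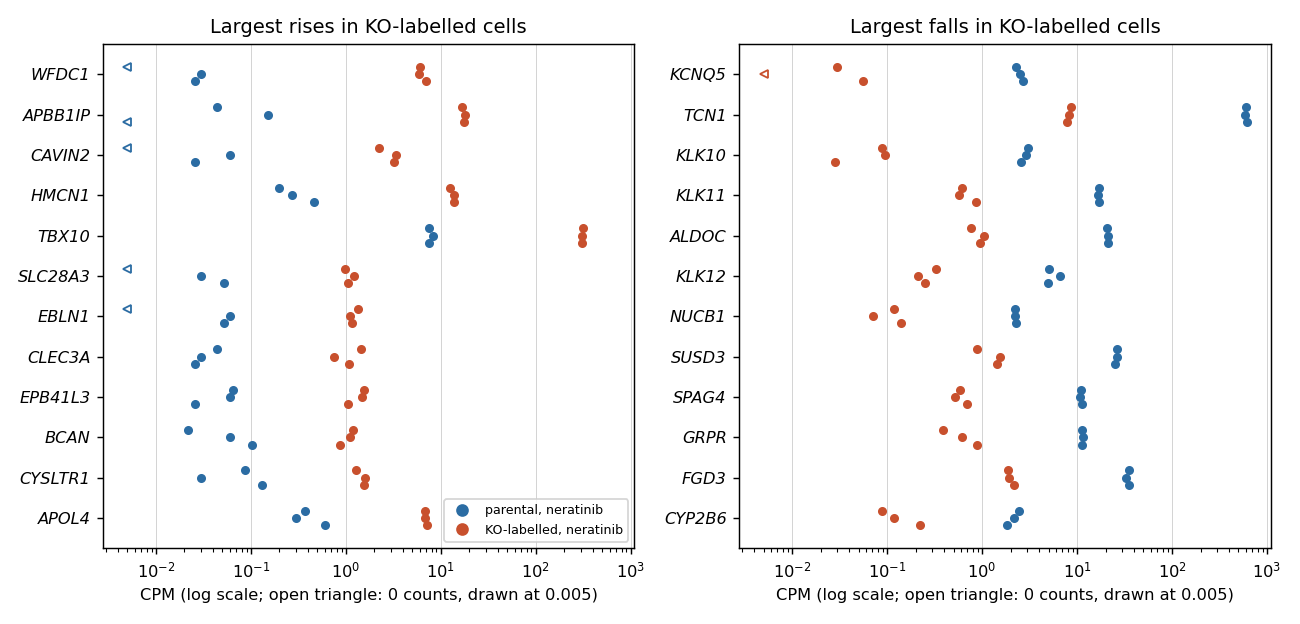
The 12 largest rises (left) and 12 largest falls (right) among protein-coding genes outside chromosome Y at 1 CPM or more in either genotype; each point is 1 of the 6 neratinib libraries, on a log axis of CPM, and an open triangle marks 0 counts. Selection required that the groups not overlap, and the gap is widest at high level for TCN1 (near 600 against 8 CPM) and TBX10 (near 8 against 307 CPM).

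Neighbouring genes fell together at 2 gene clusters. The kallikreins are secreted serine proteases encoded side by side on chromosome 19. KLK10, KLK11 and KLK12, between 51012739 and 51035002, stood at 3.05, 2.93 and 2.57, 16.9, 16.4 and 17 and 5.1, 6.64 and 4.91 CPM in parental libraries. In KO-labelled libraries they stood at 0.0887, 0.0945 and 0.0279, 0.621, 0.567 and 0.866 and 0.325, 0.213 and 0.251 CPM, with log2 fold changes of -4.62 for KLK11 and -4.39 for KLK12. KLK10 had 336 counts in parental against 8 in KO-labelled libraries, a ratio of 40.4 (20.3 to 94.2). KLK13, next along the chromosome, had 57 counts in parental and 0 in KO-labelled libraries, and was at least 18.3-fold lower when 3 counts over the KO-labelled group are taken as its limit. Of the 6 kallikreins tested, 5 fell and KLK6 did not pass the test. The clustered beta protocadherins, cell-adhesion genes without introns on chromosome 5 that begin between 141094615 and 141245395, fell in 18 of 18 cases, pseudogenes included, 13 of them at least 2-fold, with a median of -1.23 in neratinib and -1.06 in DMSO. PCDHB4 went from 25.9, 25.9 and 28 to 12.2, 12.3 and 11.4 CPM and PCDHB14 from 10.6, 9.27 and 9.66 to 3.96, 4.47 and 3.94 CPM. Of the 8 gamma protocadherins 5 fell and 1 rose, and of the 11 alpha members 1 rose and 1 fell. These genes are near-copies in sequence, so reads may be shared between them.

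By CPM rather than fold, the largest gains among protein-coding nuclear genes included those of FASN, ACTG1, TXNIP, LASP1 and FTH1, and the largest losses were of RPL19, EEF1A1, IGFBP5, RPL23, RPS3 and RPL13A. The call of LASP1 (log2 fold change 0.23) was lost with a coefficient of variation of 0.1 (adjusted p = 0.0973, edgeR). FASN, the fatty acid synthase gene, went from 1726, 1759 and 1676 to 3151, 3101 and 3067 CPM. IGFBP5, a secreted IGF-binding protein gene, fell from 3235, 3396 and 3236 to 1095, 1088 and 1068 CPM, a log2 fold change of -1.6, SE 0.021. The groups did not overlap for either gene.

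The receptor genes ESR1 and PGR and the luminal transcription factor genes GATA3, FOXA1 and SPDEF were lower in KO-labelled cells, but nuclear receptor genes as a list were not. Of 26 steroid and nuclear receptor and cofactor genes tested, 13 rose and 9 fell (50% and 34.6%, against 34.7% and 36.9% of all genes). Their median was 0.08. The oestrogen receptor gene ESR1 was at 60.3, 60.3 and 60.4 CPM in parental and 43.1, 44.5 and 42.7 CPM in KO-labelled libraries (-0.47, SE 0.030). Its target PGR, the progesterone receptor gene, fell from 194, 196 and 188 to 73.2, 78.9 and 74.6 CPM (-1.35, SE 0.025, adjusted p = 1.19e-37, edgeR). GATA3, FOXA1 and SPDEF fell by 1.18, 0.75 and 0.7 on the log2 scale, GATA3 from 382, 407 and 378 to 175, 171 and 169 CPM. The trefoil factor gene TFF1, a classic oestrogen-induced transcript, fell from 123, 119.7 and 124 to 23.8, 22.3 and 22.9 CPM (-2.41, SE 0.031), and GREB1, a receptor cofactor gene, from 143, 143 and 144 to 47.5, 49.8 and 51.1 CPM.

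Of 35 oestrogen receptor targets tested, 21 fell and 11 rose (60% and 31.4%), with a median of -0.27. Those that rose included SERPINA1, the alpha-1-antitrypsin gene, from 17.2, 15.9 and 16.9 to 61.8, 61.8 and 63.7 CPM, and the carbonic anhydrase gene CA12, by 1.13. Over the 23 luminal markers 10 rose and 10 fell (43.5% each, against 34.7% and 36.9% of all genes). Their median was 0.03, so the fall did not extend to the list.

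Most keratin genes, which encode the intermediate filament proteins of epithelia, were higher. Of 26 protein-coding ones tested, 21 rose, 14 of them at least 2-fold, and 2, KRT4 and KRT10, fell. These were 80.8% and 7.69%, against 34.7% and 36.9% of all genes, and 7.92% of all genes were at least 2-fold higher. Of 65 keratin symbols, 29 passed the filter on low counts. Their median was 1.03 in neratinib against 0.26 in DMSO. With 2 pseudogenes and 1 antisense RNA of such symbols, 23 of 29 rose and 3 fell, with medians of 0.98 and 0.21. Many of the genes at least 2-fold higher were under 1 CPM in parental cells. Among them, KRT33A, KRT1 and KRT16 had 13, 11 and 11 counts over the parental libraries in neratinib. Genes this low can pass the filter through other libraries alone, which leaves little room for a fall. KRT6B and KRT6C each had 390 counts over the parental libraries in neratinib, so the same reads may stand behind both rises. The luminal keratin gene KRT7 went from 604, 629 and 602 to 1034, 1022 and 1025 CPM and KRT8 from 1452, 1441 and 1425 to 1996, 1987 and 1936 CPM. Of other abundant keratin genes, KRT18 rose by 0.21 and KRT19 did not pass the test (0.03). KRT15, a basal-layer keratin gene, went from 8.27, 8.09 and 6.54 to 23, 22.1 and 22.9 CPM (1.57, SE 0.065), while its DMSO difference was 0.45 (interaction 1.11, adjusted p = 1.93e-06, glmTreat). The hair keratins KRT81 and KRT86, near-copies of each other, rose from under 1 CPM by 2.03 and 1.23, against -1.2 and -0.62 in DMSO.

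Of 28 basal and mesenchymal genes tested, 18 rose and 4 fell (64.3% and 14.3%), and the median was 0.7. The list shares members with the keratin and collagen lists, KRT6A and COL6A1 among them, so these results are not separate. Some genes that rose were near 0 in parental cells in neratinib, with 2 counts for TWIST2 and 11 for KRT16. TP63, the basal epithelial transcription factor gene, went from 4.73, 4.89 and 4.96 to 11.3, 10.5 and 11.3 CPM (1.18, SE 0.072) and VIM, the vimentin gene, from 44.3, 45.6 and 44.7 to 70.9, 71 and 73.2 CPM. Those that fell included S100A4, a calcium-binding protein gene, and CDH3, the P-cadherin gene, by 1.33 and 0.53 on the log2 scale. Of 31 protein-coding collagen genes, 19 rose, 15 of them at least 2-fold, and 7 fell. These were 61.3% and 22.6%, against 34.7% and 36.9% of all genes, and 7.92% of all genes were at least 2-fold higher. Of 49 collagen symbols, 32 passed the filter on low counts. Many of the genes at least 2-fold higher were under 1 CPM in parental cells, COL4A1 and COL3A1 with 9 and 10 counts in neratinib. Genes this low can pass the filter through the KO-labelled libraries alone, which leaves little room for a fall. The collagen median was 0.96 in neratinib and 0.97 in DMSO. The most abundant of them in parental cells, COL12A1, fell from 136, 133 and 138 to 50.8, 48.6 and 49.4 CPM (-1.45, SE 0.027). COL17A1, a hemidesmosome collagen gene, rose from 9.03, 10.00 and 9.32 to 41.7, 42.7 and 44.6 CPM and COL5A1 from 1.96, 1.6 and 1.53 to 15.6, 16.1 and 17.3 CPM. The basement membrane collagen gene COL4A2 rose from 0.654, 0.755 and 0.571 to 6.3, 6.31 and 6.93 CPM, and COL4A1, its divergently transcribed neighbour, from 9 counts to 76 (ratio 8.79, 4.39 to 20). The fibrillar collagen gene COL1A1 rose by 0.33.

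MYC and ribosomal protein mRNAs were lower in KO-labelled cells. MYC, a transcription factor that drives ribosome production (chromosome 8, 127735434 to 127742951), stood at 9.05, 8.4 and 7.74 CPM in parental and 1.21, 1.25 and 1.2 CPM in KO-labelled libraries, a log2 fold change of -2.78, SE 0.12 (adjusted p = 7.99e-25, edgeR), and -2.72 in DMSO. Its relative MYCN rose from 1.13, 0.725 and 0.961 to 1.98, 1.98 and 1.68 CPM, and ODC1, the polyamine synthesis gene that MYC proteins induce, from 12.3, 11.5 and 11.5 to 33.9, 33.9 and 34.4 CPM. CDKN1A, which encodes the CDK inhibitor p21, rose from 8.62, 8.28 and 9.06 to 19.8, 19.1 and 19.4 CPM.

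Ribosomal protein genes fell in 72 of 76 cases (94.7%) and rose in none, with 4 not called and a median of -0.41 in both neratinib and DMSO. Genes with such symbols took 7.45% to 7.52% of parental and 5.51% to 5.6% of KO-labelled counts. RPL13A went from 1798, 1857 and 1792 to 1096, 1063 and 1081 CPM and RPS3 from 3192, 3199.7 and 3223 to 2219, 2219.8 and 2247 CPM. Host genes of small nucleolar RNAs fell in 15 of 22 cases (68.2%) and rose in none. Protein-coding genes with mitochondrial ribosomal protein symbols fell in 43 of 78 cases and rose in 12 (55.1% and 15.4%), where 36.9% of all genes fell and 34.7% rose.

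Ribosome biogenesis genes differed less under the drug, with 19 of 44 lower and 11 higher (43.2% and 25%) and a median of -0.04, against 38 lower, 2 higher and a median of -0.36 in DMSO. The interaction was positive and passed the test at any size for 34 of the 44 and negative for none, against 3478 positive and 3991 negative of all 16208. G1/S replication genes showed the same order, with 20 of 46 higher and 9 lower in neratinib (43.5% and 19.6%, median 0.08), 8 higher and 29 lower in DMSO (median -0.18), and 29 positive and 4 negative interactions. CDCA7 and UHRF1, which act in the maintenance of DNA methylation, stood at 12.1, 11.4 and 12.1 against 21.3, 21 and 21.8 CPM and 17.1, 16.9 and 15.8 against 26.9, 24.3 and 25.3 CPM in neratinib, with log2 fold changes of 0.85 and 0.62 against -0.48 and -0.33 in DMSO. Of 44 genes of G2/M and mitosis, 22 rose and 9 fell (50% and 20.5%, against 34.7% and 36.9% of all genes). Their median was 0.07. None of the 21 genes listed for the EP400-TIP60 complex differed by 2-fold or more, as 11.2% of all genes did. At any size 6 were higher and 10 lower (28.6% and 47.6%), near the shares of all genes, 34.7% and 36.9%.

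Amino acid stress genes were lower. The transcription factor ATF4, made when the kinases that sense amino acid or folding stress are active, induces genes of amino acid synthesis and transport. Of 34 such genes tested, 27 fell and 4 rose (79.4% and 11.8%), with a median of -0.36, against -0.08 in DMSO. ATF4 mRNA stood at 435, 435 and 429.7 CPM in parental and 328, 318 and 321 CPM in KO-labelled libraries in neratinib, and at means of 536 and 745 CPM in DMSO, so the order of the genotypes turned (interaction -0.9, SE 0.026, adjusted p = 4.42e-14, glmTreat). The interaction passed 1.5-fold towards lower levels for 4 others, CHAC1 (-1.65), DDIT3 (-0.84), STC2 (-0.78) and CEBPG (-0.73). The asparagine synthetase gene ASNS went from 89.9, 91.2 and 92.9 to 63.5, 62.2 and 64.9 CPM and the proline synthesis gene PYCR1 from 143, 138 and 143 to 76.6, 72.2 and 73 CPM. PHGDH, which starts serine synthesis, was among the 4 that rose (0.5).

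Of 27 genes for chaperones and folding stress of the endoplasmic reticulum, 21 fell and 4 rose (77.8% and 14.8%), with a median of -0.32, against -0.21 in DMSO. HERPUD1, counted among the 21, had log2 fold changes of -0.21 in neratinib and 0.86 in DMSO. Its interaction, -1.07 (adjusted p = 1.23e-17, glmTreat), was the only 1 of the list to pass 1.5-fold. HSP90B1, which encodes the chaperone GRP94, stood at 539.5, 558 and 543 CPM in parental and 278, 269 and 273 CPM in KO-labelled libraries (-1.0, SE 0.019, adjusted p = 2.53e-37, edgeR). CALR, the calreticulin gene, stood at 645, 660.5 and 638 against 339, 325 and 331 CPM (-0.97, SE 0.021) and HSPA5, which encodes BiP, at 465, 467 and 459 against 374, 372 and 372 CPM (-0.32, SE 0.018). The groups did not overlap for any of the 3. The disulfide isomerase genes PDIA3 and PDIA6 fell by 0.75 and 0.74 and HYOU1 by 0.73 on the log2 scale.

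Some of these genes share promoter letters, a minority of the list that does not hold PDIA3, PDIA6 or HYOU1. The endoplasmic reticulum stress element, CCAAT, 9 bases of any kind, then CCACG, is known as a site for the factors NF-Y and ATF6. Searched on both strands in the 250 bases before each gene start (RefSeq windows, GRCh38.p14, available for 12439 tested genes), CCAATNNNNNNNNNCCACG stood in 16 windows (0.129%), of which 7 belonged to the 26 listed chaperone genes with a window (26.9%). The motif was chosen after the values of these genes were known. The 7 were ERO1B, HSP90B1, CALR, CRELD2, XBP1, CANX and HSPA5, and all 7 fell in KO-labelled cells, with log2 fold changes from -1.47 to -0.32. Of the other 9 windows, 6 belonged to genes that fell, TRIM5 and ALG12 among them, 3 to genes that did not pass the test and none to genes that rose. The windows of 3 well-known chaperone genes among them are shown 5′ to 3′ on the strand of the gene with the matches in capitals, because they carry the shared letters; a match on the opposite strand reads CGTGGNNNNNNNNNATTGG. The matches begin 66 bases before the start of HSPA5 (chr9:125241344-125241593, minus strand), 225 before that of CALR (chr19:12938359-12938608, plus strand), and 194 and 89 before that of HSP90B1 (chr12:103930160-103930409, plus strand).
HSPA5: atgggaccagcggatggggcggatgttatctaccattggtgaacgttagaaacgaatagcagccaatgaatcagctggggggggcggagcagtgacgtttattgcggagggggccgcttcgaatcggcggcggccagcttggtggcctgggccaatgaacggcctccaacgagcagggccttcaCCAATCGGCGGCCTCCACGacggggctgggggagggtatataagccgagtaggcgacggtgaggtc
CALR: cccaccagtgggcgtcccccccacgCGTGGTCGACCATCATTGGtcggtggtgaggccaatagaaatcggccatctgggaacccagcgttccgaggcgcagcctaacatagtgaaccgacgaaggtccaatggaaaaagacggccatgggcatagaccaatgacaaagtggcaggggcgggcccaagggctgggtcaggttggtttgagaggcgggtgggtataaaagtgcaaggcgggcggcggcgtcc
HSP90B1: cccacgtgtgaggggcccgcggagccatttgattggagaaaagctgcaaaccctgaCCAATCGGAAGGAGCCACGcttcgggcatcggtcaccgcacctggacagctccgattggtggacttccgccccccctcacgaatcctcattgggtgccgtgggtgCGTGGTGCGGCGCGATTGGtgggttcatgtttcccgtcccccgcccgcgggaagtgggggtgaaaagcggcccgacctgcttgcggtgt
The same letters in all genes that were at least 2-fold higher in KO-labelled cells were found in 0 of 943 windows, and in those at least 2-fold lower in 3 of 401 (0.748%). A match describes letters only and says nothing of binding in these cells.

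Of 50 replication-dependent histone genes, 49 rose (98%) and 1 fell, with a median of 0.95 in neratinib against 1.67 in DMSO. Most of these mRNAs lack a poly(A) tail, so the libraries hold only the polyadenylated part, and near-copies share reads. H2BC4 stood at 34.3, 34 and 35.7 CPM in parental and 73.1, 74.4 and 75.1 CPM in KO-labelled libraries (1.1, SE 0.031), and at means of 11.1 and 45.7 CPM in DMSO. The interaction passed 1.5-fold towards a smaller difference in neratinib for 13 of the 50 and towards a larger one for none. CCAAT or its reverse complement ATTGG stood in 39 of 47 histone windows (83.0%), against 34.9% of all 12439; this count includes CCAAT within the longer motif above, and 84.6% of the chaperone windows held it. The window of H2BC4 (chr6:26123927-26124176, minus strand) is shown with its 3 matches in capitals, which begin 182, 152 and 78 bases before the start.
H2BC4: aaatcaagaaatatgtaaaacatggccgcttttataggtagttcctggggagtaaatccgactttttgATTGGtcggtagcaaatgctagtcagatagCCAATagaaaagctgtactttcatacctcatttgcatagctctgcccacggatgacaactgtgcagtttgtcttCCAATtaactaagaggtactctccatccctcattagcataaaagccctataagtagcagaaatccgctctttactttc

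Many class I antigen presentation and chemokine genes were higher. HLA-B, a class I molecule gene, stood at 15.4, 17.1 and 17.9 CPM in parental and 62.6, 64.5 and 64.3 CPM in KO-labelled libraries (1.93, SE 0.041), and its partner B2M at 136, 135 and 137 against 168, 165 and 171 CPM. Of 21 class I presentation genes, 13 rose, 7 of them at least 2-fold, and 5 fell (61.9% and 23.8%), with a median of 0.38. The summed level of the list was nevertheless lower, 1526 against 1775 CPM, since the chaperone genes CALR and PDIA3, described above, belong to it. Of 10 class II presentation genes tested, 5 rose and 3 fell (50% and 30%). Those that fell were the RFX regulators RFX5, RFXAP and RFXANK, by 0.57, 0.53 and 0.52 on the log2 scale. Those that rose included HLA-DQB1, from 10.7, 11 and 10.3 to 34, 34.7 and 34.6 CPM. Another was the regulator gene CIITA, by 1.9, with 20 counts in parental and 72 in KO-labelled libraries. HLA genes are near-copies and differ between people, so counts against one reference can be split. CXCL17, a mucosal chemokine gene, rose from 14.2, 13.4 and 13.9 to 74.5, 77.7 and 73.7 CPM (2.44, SE 0.042). Of 10 chemokine genes tested, 7 rose (70%) and none fell, against 34.7% and 36.9% of all genes. The higher sum of immune, blood and endothelial markers given above came mostly from VWF, an endothelial gene. By plain library totals VWF stood at 15.45, 15.31 and 14.5 CPM in parental and 36.22, 39.44 and 40.8 CPM in KO-labelled libraries. CD68 stood at 6.275, 7.268 and 5.815 against 6.913, 6.662 and 6.501 CPM. The part of other cells in these differences was not tested.

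**Figure D4:**
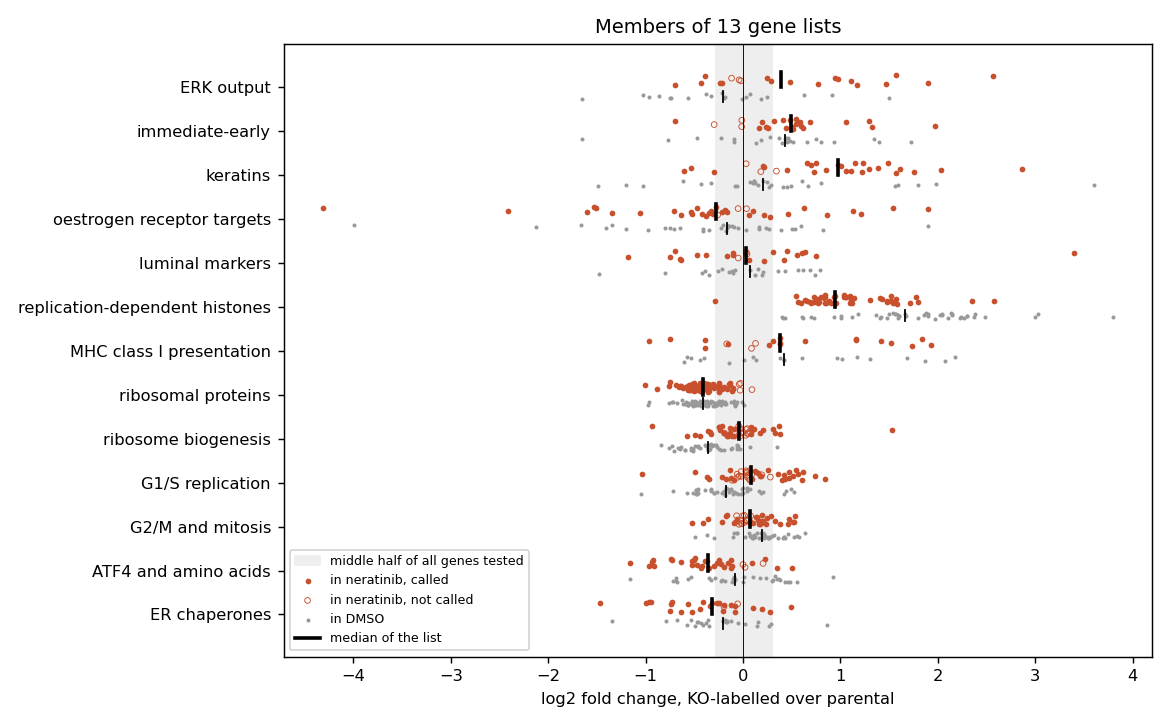
Log2 fold changes of the members of 13 lists, KO-labelled over parental: the upper row of each list shows neratinib (filled where called, open where not), the lower row of small grey points DMSO, and the vertical bars the medians. The histone list lies almost wholly above 0 and the ribosomal protein list below it in both conditions, while ERK output and keratin medians stand farther right in neratinib (0.39 and 0.98) than in DMSO (-0.21 and 0.21).

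Most genes with a large difference in neratinib had it in DMSO as well. The comparison in DMSO shares no library with that in neratinib. It called 2002 genes at least 2-fold different (12.4%), 1441 higher (8.89%) and 561 lower (3.46%). Of the 1810 genes called in neratinib, 1200 were called at least 2-fold the same way in DMSO, which is 66.3% of the neratinib and 59.9% of the DMSO genes, and 3 were called the opposite way. Across all 16208 genes the log2 fold changes of the comparisons had a Pearson correlation of 0.81, given as a description because genes are not independent. WFDC1, TBX10, TCN1, the kallikreins, MYC and PGR were among the genes whose difference was present in both.

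The interaction passed 1.5-fold for 352 genes (2.17%), 179 positive (1.1%) and 173 negative (1.07%); with DESeq2 it passed for 197. Of the 1810 genes at least 2-fold different in neratinib, 114 were among them, 49 with a larger difference of the same sign in neratinib, 26 with a smaller one and 39 with estimates of opposite sign. Besides DUSP6, KRT81, KRT86 and ARRDC4, the 8 largest positive interactions among protein-coding genes 2-fold different in neratinib, outside chromosome Y and at 1 CPM or more in either genotype, were of DGKK, a diacylglycerol kinase gene, the smooth muscle actin gene ACTG2, the cornified envelope gene IVL and MED12L. IVL stood at 0.633, 0.242 and 0.441 CPM in parental and 2.84, 3.59 and 3.24 CPM in KO-labelled libraries in neratinib, and at means of 3.2 and 4.68 CPM in DMSO. ACTG2 and DGKK were under 2 CPM in every group and went from 0.240, 0.211 and 0.390 to 1.51, 1.3 and 1.54 CPM and from 0.131, 0.362 and 0.182 to 1.63, 1.51 and 1.17 CPM.

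Some of the 8 largest negative interactions, chosen the same way, were of genes higher in KO-labelled cells in both conditions but less so in neratinib. NDST4, a heparan sulfate modifying enzyme gene, stood at 9.75, 9.88 and 9.53 CPM in parental and 23.1, 24.6 and 23.9 CPM in KO-labelled libraries in neratinib, against means of 1.6 and 16.7 CPM in DMSO. The calpain gene CAPN9 and the retinol dehydrogenase gene DHRS9 showed the same pattern, with log2 fold changes of 1.66 and 2.37 in neratinib and 3.09 and 3.78 in DMSO. Another 4, SOX2, PCDH19, APELA and DNAJB13, were lower in KO-labelled cells in neratinib and near equal or less different in DMSO. SOX2, a stem cell transcription factor gene, stood at 15.7, 16.6 and 17.1 CPM in parental and 5.44, 4.7 and 4.55 CPM in KO-labelled libraries in neratinib (-1.75, SE 0.071), and at means of 16 and 12.7 CPM in DMSO (-0.34). APELA, which encodes a peptide ligand of the apelin receptor, went from 3.32, 4.14 and 2.93 to 0.769, 1.25 and 0.950 CPM in neratinib and differed by 0.03 in DMSO.

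**Figure D5:**
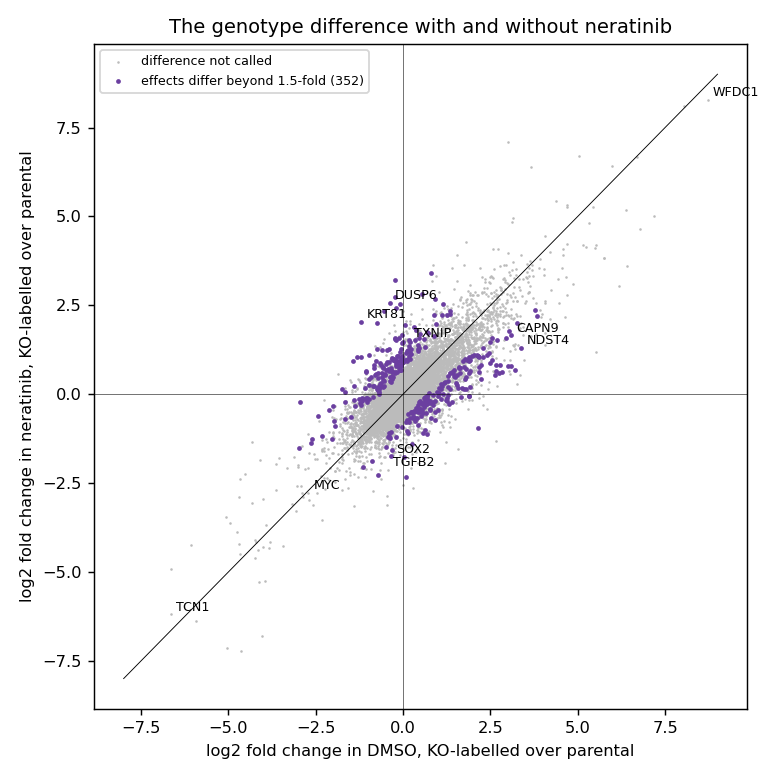
Each point is a gene; the x axis is its log2 fold change, KO-labelled over parental, in DMSO and the y axis the same in neratinib, with the line of equality drawn. The 352 genes whose difference passed 1.5-fold between the conditions are dark; DUSP6 and TXNIP lie above the line, SOX2 and NDST4 below it, and TCN1, MYC and WFDC1 near it.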

How the data were processed

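Messenger RNA was measured in 12 libraries, 3 in each of 4 groups set by the labels. The authors deposited raw counts of reads per gene, as whole numbers, in a single table. Per the submitters' processing notes, FastQC 0.11.7, STAR 2.7.9, edgeR 3.40.2 and the GRCh38 genome were named; a counting program, annotation and strand setting are not given in the sources used here. Per the labels, libraries came from a kit that selects poly(A) RNA and does not mark strand, so reads of a gene and an overlapping or antisense neighbour cannot be told apart. Of 28395 lines, 581 had no symbol (0.0877% to 0.124% of counts) and were left out. Of the 27814 genes, 27341 matched RefSeq GRCh38.p14 by symbol, 283 by synonym and 190 not at all.

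Genes passing edgeR's filterByExpr (16208) were scaled by TMM and fitted with a mean per group over all 12 libraries (edgeR 4.0.16, R 4.3.3, quasi-likelihood, 8 residual degrees of freedom). Every adjusted p is Benjamini-Hochberg adjusted over all genes, called below 0.05; the interaction was tested beyond 1.5-fold with glmTreat. CPM are counts scaled to a common library size by TMM, except in the marker sums, which use the plain library totals. On simulated counts for 15687 genes, 91.7% of 2-fold and 79.4% of 1.5-fold changes of this comparison were recovered. The simulation changed 96 genes by 2-fold and 97 by 1.5-fold, in both directions alike. In the data 71.6% of genes were called, so these rates may not carry over. Replicates correlated at Spearman 0.980 to 0.983 and differed by more than sampling noise. Same-numbered libraries of the genotypes did not deviate together (correlations -0.0201, 0.0093 and -0.0163).

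The members and lists were chosen with earlier results of these data known. A rule named 9 core genes, the 12 largest rises and falls at 1 CPM or more without overlap between groups, the 6 largest gains and losses in CPM, the 8 largest interactions of each sign at 1 CPM or more, Y-linked genes left out, and up to 4 called members of each list, or 1 of each sign for symbol families. Other genes named, such as DUSP4, SPRY2, SPRY4, ETV4, EGR1, KRT15, COL4A1, ATF4, HSPA5 and H2BC4, were chosen after their values were seen. Some genes that the rule or lists named are not reported here. Alternatives tried were other scalings, other filters, DESeq2 1.42.0, limma 3.58.1 with voom, the 6 neratinib libraries alone, a replicate block, a coefficient of variation of 0.1 and leaving out each library. Intervals of count ratios cover counting error only.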

Additional observations from a re-analysis of the deposited data

Results flagged for a closer look

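The genotype difference in neratinib and in DMSO was compared gene by gene, and 352 genes differed beyond 1.5-fold (edgeR glmTreat, adjusted p under 0.05). Values here are log2 differences, the KO effect in neratinib minus that in DMSO. Among genes named above, those with ErbB and ERK feedback or output roles were DUSP6 (2.95), SPRY4 (2.07), EPHA2 (1.79), ETV5 (1.47), ETV4 (1.33), SPRY2 (1.30), DUSP4 (0.98), EGR1 (0.95) and ERRFI1 (0.91). The transcription factor genes KLF2 (1.03) and MYCN (1.18) and the polyamine gene ODC1 (1.18) also had a positive difference. So did the arrestin-domain genes ARRDC4 (1.79) and TXNIP (1.36).

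Epithelial and structural genes with a positive difference were KRT81 (3.23), KRT86 (1.85), KRT15 (1.11), IVL (2.28), ACTG2 (2.88) and CA12 (0.89). DGKK (2.97), MED12L (1.90), CDCA7 (1.33) and UHRF1 (0.95) made up the rest.

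Negative differences were found for NDST4 (-2.08), APELA (-1.79), PCDH19 (-1.63), DNAJB13 (-1.53), CAPN9 (-1.43), DHRS9 (-1.41) and SOX2 (-1.41). The amino acid stress genes CHAC1 (-1.65), ATF4 (-0.90), DDIT3 (-0.84), STC2 (-0.78) and CEBPG (-0.73) formed another set. The folding stress gene HERPUD1 (-1.07), the histone gene H2BC4 (-0.94) and the immediate-early gene JUN (-0.75) completed the negative differences.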

How the results depend on the processing

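No direction reversed under any alternative run among the genes named above that were followed there. The calls lost, those of ERBB2, ERBB3, CCND1 and LASP1, were lost with a coefficient of variation of 0.1. With that value for every gene, 6950 genes passed at any size, 3596 higher and 3354 lower, against 11605, so small differences rest on the closeness of these replicates. With a mean of at least 5 CPM required, 514 genes were at least 2-fold different, 371 higher and 143 lower, since fewer genes were tested. With DESeq2 the interaction passed 1.5-fold for 197 genes against 352, and the cause was not tested. Which of the named genes kept their interaction call under the alternatives was not compared. The samples share only a replicate number; with a replicate block, 1807 genes were at least 2-fold different, 11512 passed at any size and 339 had an interaction. Leaving out 1 library at a time gave 1869 to 1884 genes at 2-fold or more, 11030 to 11334 at any size and 308 to 343 interactions. The median of the ErbB list was -0.03 at a mean of at least 5 CPM. Depth limits genes with 10 counts or fewer in a group, for which ratios of counts with their intervals are given.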
